A study of Mus musculus with 5 samples.

Results

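The Wnt ligands, their receptors and their modulators were measured in bladder urothelium of wild-type mice and of mice carrying a Nicastrin knockout. The 53 genes were taken by symbol from the 24970 genes counted in each library, and all 53 were listed there. They comprise 12 Wnt ligands, 2 genes of Wnt secretion, the Norrin gene and 3 R-spondins, 12 Frizzled receptors and co-receptors, 3 R-spondin receptors, 9 secreted antagonists, 6 feedback regulators, and beta-catenin with 4 TCF/LEF factors. RNA came from urothelium dissected off the bladder muscle of 5 mice aged 10 weeks. The 2 wild types (WT 1 and WT 2) are labelled C57Bl/6. The 3 knockouts (KO 1, KO 2 and KO 3) are Krt5CreERT2;Ncstnflox/flox: the promoter of Krt5, a keratin gene of basal cells, drives a Cre that tamoxifen-type ligands activate, and Cre removes floxed Ncstn. The sources used here do not say how Cre was induced. The strain label of the knockouts repeats their genotype, so strain background and Cre cannot be told apart from loss of Ncstn. Nicastrin is a subunit of gamma-secretase, the protease that releases the signalling fragment of Notch receptors, and the series concerns the role of Notch in urothelial integrity.

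Wnt proteins are lipid-modified ligands that bind Frizzled receptors together with Lrp5 or Lrp6. In the canonical branch this stabilises beta-catenin, which enters the nucleus and activates genes bound by TCF/LEF factors, among them the feedback inhibitor Axin2. R-spondins raise the amount of Frizzled at the cell surface through Lgr receptors and the ubiquitin ligases Znrf3 and Rnf43, while Sfrp, Dkk and Wif proteins hold the pathway back outside the cell. In the bladder, Sonic hedgehog from basal cells is known to induce Wnt2 and Wnt4 in the stroma, which signal back to the epithelium.

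Gene counts ranged from 12608836 to 27188499 per library. Expression is given as CPM, counts scaled to library size with TMM factors of 0.978 to 1.03, and libraries are listed in the order WT 1, WT 2, KO 1, KO 2, KO 3. Ncstn itself was at 144 and 130 CPM in wild types and at 114, 117 and 123 CPM in knockouts (log2 fold change -0.21 ± 0.09, SE; edgeR adjusted p = 0.133), and a total over all exons and cells does not check the deletion. The precursor ribosomal RNA Rn45s took 3.23% to 7.84% of gene counts in wild types and 0.608% to 1.53% in knockouts. The tissue held epithelium and stroma. Umbrella cell markers summed to 8869 to 9563 CPM in wild types and 13568 to 14906 CPM in knockouts. Of these 9 markers, 7 rose (77.8%, beside 9.64% of all genes tested). Fibroblast markers summed to 18814 to 20716 CPM against 13067 to 15221 CPM. Of 18, 12 were lower (66.7%, beside 10.0% of all genes tested) and 2 higher (11.1%). Endothelial markers summed to 888 to 965 CPM against 645 to 774 CPM, with 6 of 13 lower (46.2%, beside the same 10.0%). No marker of these lists was at 0 in all libraries. In such bulk tissue, fewer cells of a type and less RNA per cell cannot be told apart.

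Of the 53 genes, 45 had enough counts to be tested, and 11 of these (24.4%) changed in the edgeR quasi-likelihood test at a Benjamini-Hochberg adjusted p under 0.05. Among all 14779 genes tested the share was 19.7%. In the knockouts 9 of the 45 were lower (20.0%, against 10.0% of all genes) and 2 were higher (4.44%, against 9.64%). The genes that fell were the Norrin gene Ndp, the antagonists Sfrp4, Frzb and Dkk2, the transcription factors Lef1 and Tcf7, the feedback gene Axin2, the ligand Wnt11 and the receptor Fzd1. Wnt7b and Tcf7l1 rose. The median log2 fold change was -0.12 over the 45 genes and 0.01 over all genes tested. Ndp, Sfrp4 and Wif1 reached the count filter through a single genotype, which selects for a difference. Among the other 42 genes, 7 were lower (16.7%) and 2 higher (4.76%), and 21.4% were called in either direction. The shares of all genes tested still include genes selected in that way. All 3 knockouts lay below both wild types in 14 of the 45 genes (31.1%, against 25.1% of all genes) and above both in 7 (15.6%, against 25.9%). Without those 3 genes the counts were 12 of 42 (28.6%) and 6 of 42 (14.3%).

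**Figure D1:**
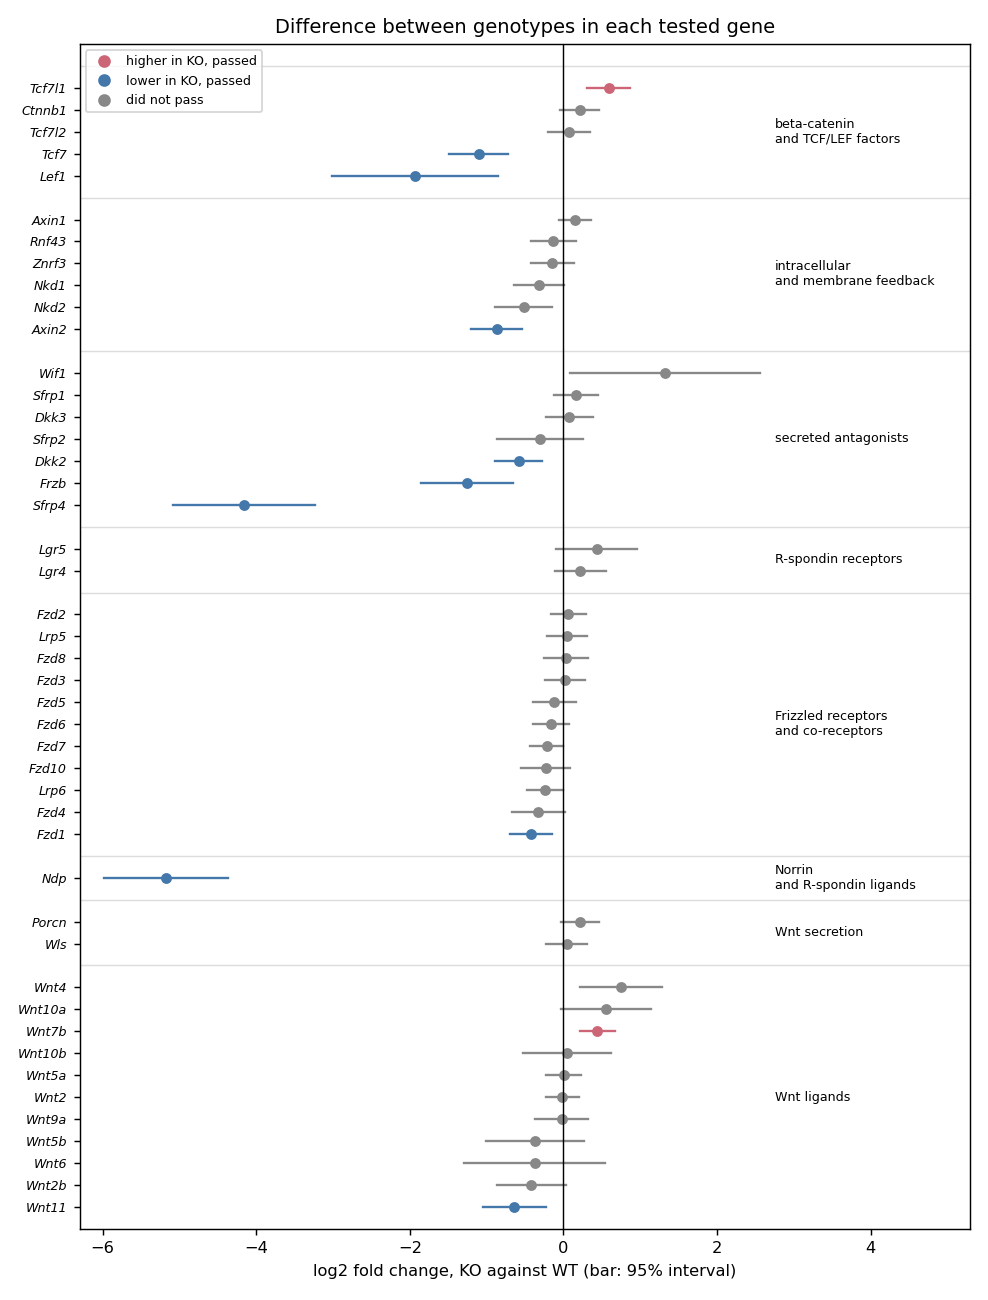
Log2 fold change of each tested gene in knockouts against wild types, grouped by role, with its 95% interval from the edgeR fit; colours mark the genes that passed the test. The Frizzled and Lrp genes lie between -0.42 and 0.06 and the Wnt ligands between -0.64 and 0.75, whereas Ndp and Sfrp4 lie at -5.17 and -4.16.

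Promoter windows bear on these genes because TCF/LEF factors carry the canonical Wnt signal and RBPJ is the DNA-binding partner of the Notch fragment that gamma-secretase releases. RefSeq windows on GRCm38.p6 were matched by symbol for 35 of the 53 genes, 45 windows in all, and the 250 bases before each start were searched on both strands. The TCF/LEF letters sought were CTTTGAA or CTTTGAT or CTTTGTA or CTTTGTT, and the RBPJ core was TGGGAA. Of the 45 windows, 7 (15.6%) held TCF/LEF letters, against 14.8% of all 32851 windows, and 7 (15.6%) held the RBPJ core, against 21.6%. Genes that changed had 14 windows, of which 3 held TCF/LEF letters and 2 the RBPJ core. TCF/LEF letters were in the window of Ndp, in 1 of 2 windows of Wnt11 and in 1 of 4 of Lef1, at an internal start. The RBPJ core was in the windows of Frzb and Tcf7l1. Wnt7b and Sfrp4 were not matched. The first 3 are printed below 5′ to 3′ on the gene's strand, with the matched letters in capitals, beside that of Axin2, which holds none of these letters. They lie at chrX:16911775-16912024 (minus, Ndp), chr7:98834862-98835111 (plus, Wnt11), chr3:131156044-131156293 (plus, Lef1) and chr11:108920099-108920348 (plus, Axin2).
Ndp: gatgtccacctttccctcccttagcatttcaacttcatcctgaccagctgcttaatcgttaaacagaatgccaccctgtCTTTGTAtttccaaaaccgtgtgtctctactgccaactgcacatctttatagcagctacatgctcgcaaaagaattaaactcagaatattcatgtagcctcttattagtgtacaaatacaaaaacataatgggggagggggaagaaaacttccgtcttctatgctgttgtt
Wnt11: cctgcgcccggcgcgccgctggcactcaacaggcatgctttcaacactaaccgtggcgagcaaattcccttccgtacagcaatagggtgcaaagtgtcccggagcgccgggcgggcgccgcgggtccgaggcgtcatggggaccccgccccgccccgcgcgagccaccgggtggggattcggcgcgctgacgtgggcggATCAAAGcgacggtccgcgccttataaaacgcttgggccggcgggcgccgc
Lef1: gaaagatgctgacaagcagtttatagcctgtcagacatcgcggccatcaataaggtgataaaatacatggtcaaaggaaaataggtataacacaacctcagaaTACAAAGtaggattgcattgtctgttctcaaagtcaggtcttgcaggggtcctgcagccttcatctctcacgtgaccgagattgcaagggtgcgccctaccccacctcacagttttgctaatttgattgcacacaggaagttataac
Axin2: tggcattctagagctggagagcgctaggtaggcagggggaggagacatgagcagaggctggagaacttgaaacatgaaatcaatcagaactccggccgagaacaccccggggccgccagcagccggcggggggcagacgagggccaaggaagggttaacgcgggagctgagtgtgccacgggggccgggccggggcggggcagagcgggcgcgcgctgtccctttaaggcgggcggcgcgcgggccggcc
The matched letters begin 171 bases before the start of Ndp, 51 bases before that of Wnt11 and 147 bases before that of Lef1; in Wnt11 and Lef1 they are on the opposite strand. A match is a description of the letters and not of binding.

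Of the 5 beta-catenin and TCF/LEF genes, 2 fell (40.0%), 1 rose (20.0%) and 2 gave no call (median log2 fold change 0.07). Of the 6 feedback genes 1 fell (16.7%) and 5 gave no call. Among all genes tested, 10.0% fell and 9.64% rose. The feedback gene that fell was Axin2, a scaffold of the beta-catenin destruction complex that beta-catenin itself switches on. It measured 18.8 and 21.4 CPM in wild types, then 9.41, 11.8 and 11.9 CPM in knockouts. The highest knockout lay well under the lower wild type. Axin2 fell 1.83-fold (log2 fold change -0.87 ± 0.15, SE; edgeR adjusted p = 0.00396). It was called under all 15 alternatives, each left-out library included, with an adjusted p of at most 0.0458 (edgeR, DESeq2 or limma-voom). Tcf7, which encodes TCF1, measured 11.96 and 11.6 CPM in wild types, then 4.86, 6.20 and 5.53 CPM in knockouts, about as clear a separation. Tcf7 fell 2.15-fold (log2 fold change -1.10 ± 0.17, SE; edgeR adjusted p = 0.00233) and was also called under all 15.

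Lef1, which encodes a TCF/LEF factor and is a known Wnt target, measured 8.88 and 8.50 CPM in wild types, then 2.79, 0.421 and 3.66 CPM in knockouts. KO 2 stood lowest with 7 counts, against 74 in KO 1 and 47 in KO 3, and no knockout reached the wild types. Lef1 fell 3.82-fold (log2 fold change -1.94 ± 0.49, SE; edgeR adjusted p = 0.0210). This call was lost when WT 1 or WT 2 was left out (edgeR adjusted p = 0.159 or 0.105), in a robust edgeR fit (adjusted p = 0.0714) and in DESeq2 (adjusted p = 0.165). T cells also use Lef1 and Tcf7, and the T cell genes Cd3e and Cd3g were scarce, with 68 and 75 counts in all. Their log2 fold changes were 0.02 and 0.45, without a call (edgeR adjusted p = 0.980 and 0.677). The 95% interval for Cd3g was wide, from -1.06 to 1.96. Ptprc, another marker on the macrophage and T cell list, measured 12.6 and 12.7 CPM in wild types. In knockouts Ptprc measured 4.03, 4.99 and 11.7 CPM, below both wild types but without a call (log2 fold change -0.93, edgeR adjusted p = 0.0924). Fibroblast and endothelial marker sums were lower in the same knockouts. The part of any of these cell types in the decrease of Axin2, Tcf7 and Lef1 was not tested.

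Tcf7l1, which encodes TCF3, a family member that mostly represses its targets, moved the other way. It measured 22.4 and 17.8 CPM in wild types, then 29.9, 30.4 and 30.5 CPM in knockouts, which were close together above both. Tcf7l1 rose 1.503-fold (log2 fold change 0.59 ± 0.13, SE; edgeR adjusted p = 0.0103), and the call was lost when WT 2 was left out (edgeR adjusted p = 0.0839). Tcf7l2, which encodes TCF4, had overlapping genotypes and a 95% interval of the log2 fold change from -0.21 to 0.34. Per exon length, Tcf7 was at 4.56 and 4.43 RPKM (CPM per kilobase of exon) in wild types and 1.85 to 2.36 RPKM in knockouts. Tcf7l1 was at 5.70 and 4.53 RPKM in wild types and 7.62 to 7.78 RPKM in knockouts, so the gap between these genes was wider in the knockouts.

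Ctnnb1, the beta-catenin gene, had the highest level of the 53 per exon length. It measured 1358 and 1321 CPM in wild types, then 1609, 1480 and 1556 CPM in knockouts, all 3 above both wild types. The log2 difference of 0.21 ± 0.11 (SE) missed the threshold (edgeR adjusted p = 0.219). Beta-catenin protein, which is set mainly by degradation, was not measured.

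Other feedback genes differed less. Nkd2, which encodes a Dishevelled-binding inhibitor, measured 12.6 and 12.7 CPM in wild types, then 7.42, 9.86 and 9.42 CPM in knockouts. The groups did not overlap, but the log2 fold change of -0.52 ± 0.17 (SE) narrowly missed the threshold (edgeR adjusted p = 0.0547). It passed under 6 of 15 alternatives, one of them leaving out KO 3 (edgeR adjusted p = 0.0261). Its relative Nkd1 had a log2 fold change of -0.32 ± 0.15 (SE; edgeR adjusted p = 0.147), again with every knockout below both wild types. Znrf3 and Rnf43, whose products remove Frizzled from the surface, had log2 fold changes of -0.15 and -0.13 with overlapping genotypes. Axin1, the constitutive relative of Axin2, measured 64.7 and 60.4 CPM in wild types, then 65.6, 72.0 and 70.5 CPM in knockouts (edgeR adjusted p = 0.301).

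A few ligand genes carried most of the ligand RNA. Per exon length, Wnt5a led in wild types with 51.0 and 45.8 RPKM, while Wnt4 (35.1 and 37.5 RPKM) and Wnt2 (34.3 and 39.5 RPKM) overlapped each other below it. Wnt7b followed at 12.5 and 12.6 RPKM, and each of the other 8 was at 6.93 RPKM or lower. Those 8 together took 14.4% and 14.2% of the summed ligand RPKM in wild types and 8.95%, 10.3% and 12.5% in knockouts.

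**Figure D2:**
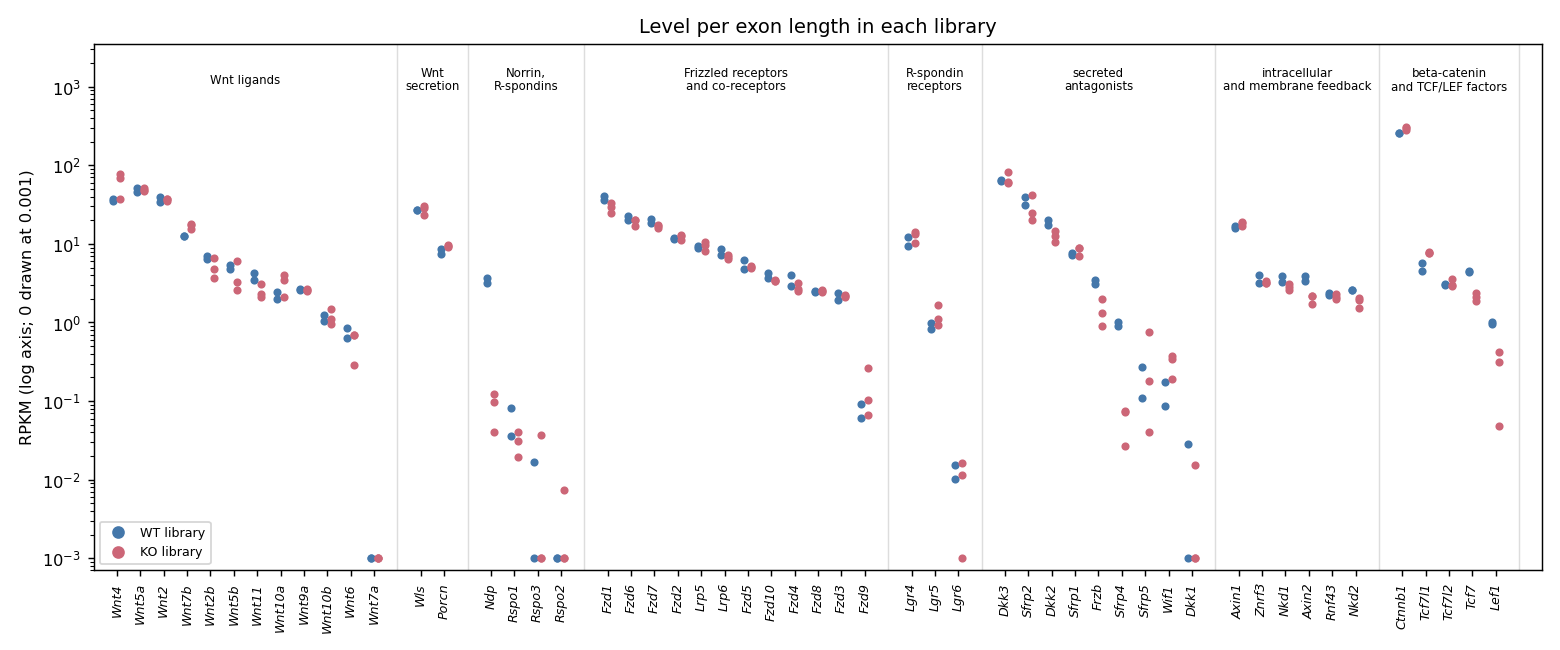
RPKM of all 53 genes in each library on a log axis, grouped by role, with values of 0 drawn at 0.001. Ctnnb1 is highest at 254 to 310 RPKM, and the R-spondins, Lgr6 and Dkk1 lie at 0.0809 RPKM or lower in every library.

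Wnt7b, a canonical ligand made by epithelia, measured 61.0 and 61.8 CPM in wild types, then 88.5, 86.1 and 75.4 CPM in knockouts. Every knockout lay above both wild types, KO 3 least so. Wnt7b rose 1.36-fold (log2 fold change 0.44 ± 0.10, SE; edgeR adjusted p = 0.0142). The mean marker sums were 1.54-fold higher for umbrella cells and 1.23-fold for the pan-urothelial list, of which 2 of 11 rose. For basal cells the sum was 1.23-fold higher, with 3 of 9 markers higher and 1 lower. Of all genes tested, 9.64% rose and 10.0% fell. The part of these cell types in the rise of Wnt7b was not tested. Leaving out any one of WT 1, WT 2, KO 1 and KO 2 lost the call (edgeR adjusted p = 0.106, 0.0696, 0.0556 and 0.0529), with log2 fold changes of 0.39 to 0.43.

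Wnt4, which acts through canonical and non-canonical routes, differed more but less evenly. It measured 147 and 157.3 CPM in wild types, then 287, 323 and 157.4 CPM in knockouts. KO 1 and KO 2 were far above the wild types and KO 3 was level with WT 2. The log2 fold change of 0.75 ± 0.24 (SE) missed the threshold (edgeR adjusted p = 0.0521). It passed under 4 of 15 alternatives, among them library totals alone (edgeR adjusted p = 0.0489), no filter on low counts (5.83e-06) and KO 3 left out (2.6e-05, with a log2 fold change of 0.99). Wnt4 took 22.6% and 23.8% of the summed ligand RPKM in wild types, then 36.2%, 38.6% and 23.8% in knockouts. The summed RPKM of all 12 ligands was 155 and 158 in wild types, then 189, 199 and 158 in knockouts, so KO 3 again sat with the wild types. Summed basal cell markers were also highest in KO 1 and KO 2, at 3831 and 4582 CPM in wild types, then 5484, 6306 and 3701 CPM in knockouts. Of these 9 markers 3 rose (Krt14, Cdh3 and Ngfr), 1 fell and 5 gave no call, beside 9.64% higher and 10.0% lower of all genes. Krt14, a keratin of basal cells, measured 1.78 and 3.14 CPM in wild types, then 86.3, 117 and 31.2 CPM in knockouts. Summed macrophage and T cell markers were 420 and 457 CPM in wild types, then 188, 279 and 423 CPM in knockouts. Cd74 was a large part of this sum, at 172 and 185 CPM, then 37.0, 50.9 and 173 CPM. Of these 10 markers 1 fell (Lyz2, 10.0%, as among all genes) and 9 gave no call. Every knockout lay below both wild types in 3 (30.0%, beside 25.1% of all genes). C1qa and C1qb (20.0%, beside 25.9%) were above both in every knockout. Summed Schwann cell markers were 88.7 and 79.7 CPM in wild types, then 148, 173 and 100 CPM in knockouts. Umbrella cell, pan-urothelial, fibroblast and endothelial sums of KO 3 stayed on the side of KO 1 and KO 2, and smooth muscle markers were lowest in KO 3. The part of basal or other cells in the values of Wnt4 and of other genes in which KO 3 stood apart was not tested.

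**Figure D3:**
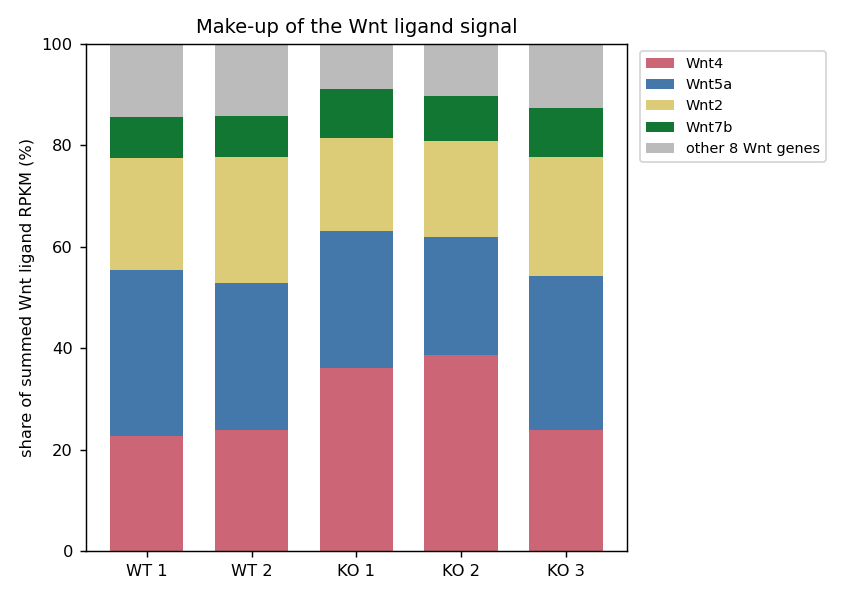
Share of the summed Wnt ligand RPKM taken by Wnt4, Wnt5a, Wnt2, Wnt7b and the other 8 ligand genes in each library. The Wnt4 share is 36.2% and 38.6% in KO 1 and KO 2 and 22.6% to 23.8% in WT 1, WT 2 and KO 3.

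Wnt11, a ligand best known in the non-canonical branch, measured 14.5 and 17.6 CPM in wild types, then 8.66, 12.7 and 9.65 CPM in knockouts, with no overlap. Wnt11 fell 1.56-fold (log2 fold change -0.64 ± 0.18, SE; edgeR adjusted p = 0.0356). Leaving out WT 1, WT 2 or KO 1 lost the call (edgeR adjusted p = 0.104, 0.193 or 0.119). The ligands Wnt5a and Wnt2 gave no call. Wnt5a measured 399 and 359 CPM in wild types, then 399, 364 and 375 CPM in knockouts, and the 95% interval of its log2 fold change ran from -0.22 to 0.23. Wnt2 measured 77.4 and 89.0 CPM in wild types, then 78.8, 84.9 and 83.5 CPM in knockouts, with an interval from -0.23 to 0.20.

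The other ligands tested, all scarcer, gave no call. Wnt5b measured 14.1 and 12.7 CPM in wild types, then 8.73, 6.98 and 16.1 CPM in knockouts, KO 3 being the highest of all (edgeR adjusted p = 0.395). Wnt10a, a canonical ligand of epithelial appendages, measured 4.91 and 6.06 CPM in wild types, then 8.70, 9.80 and 5.22 CPM in knockouts (edgeR adjusted p = 0.168), with KO 3 between the wild types. When KO 3 was left out, Wnt5b was lower (log2 fold change -0.78, edgeR adjusted p = 0.0046) and Wnt10a higher (0.74, adjusted p = 0.0121). Wnt2b measured 29.1 and 27.3 CPM in wild types, then 15.7, 27.8 and 20.2 CPM in knockouts (edgeR adjusted p = 0.169), and passed when KO 2 was left out (adjusted p = 0.0218). Wnt6, Wnt9a and Wnt10b were at 0.623 to 8.83 CPM and overlapped between genotypes. Wnt7a had 0 counts in 89991190 gene counts, which by counting error alone allows up to 0.0333 CPM over all libraries. Of the genes that serve all Wnt ligands, the acyltransferase gene Porcn had a log2 fold change of 0.21 and the transporter gene Wls 0.04 (edgeR adjusted p = 0.205 and 0.834).

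Ndp had the largest fold change of the 45 genes. It encodes Norrin, a ligand outside the Wnt family that binds Fzd4 with Lrp5 and is known for its role in retinal blood vessels. The gene lies on chromosome X from 16885521 to 16911774 (minus strand, GRCm38). Its counts were 118 and 103 in wild types, then 5, 4 and 1 in knockouts, or 6.16 and 7.18 CPM against 0.188, 0.241 and 0.0779 CPM. Ndp was thus detected in both wild types and close to absent from every knockout. It fell 36.1-fold (log2 fold change -5.17 ± 0.36, SE; edgeR adjusted p = 2.55e-05) and was called in all 14 alternatives that tested it, with log2 fold changes of -5.42 to -4.93. Summed endothelial and fibroblast markers were at 0.753 and 0.728 of their wild-type means in the knockouts, and their part in it was not tested.

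The receptors of Norrin gave no call. Fzd4 measured 26.8 and 19.8 CPM in wild types, then 17.1, 18.1 and 21.1 CPM in knockouts (log2 fold change -0.33 ± 0.16, SE; edgeR adjusted p = 0.168). Lrp5 measured 92.2 and 85.2 CPM in wild types, then 78.5, 94.7 and 102 CPM in knockouts (edgeR adjusted p = 0.830). The genotypes overlapped in both genes.

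R-spondin transcripts were barely detected. Rspo1, Rspo2 and Rspo3 had 7, 1 and 4 counts over all 5 libraries, too few for a test. Their receptor gene Lgr4 measured 71.7 and 55.8 CPM in wild types, then 82.2, 79.5 and 60.5 CPM in knockouts (log2 fold change 0.22 ± 0.15, SE; edgeR adjusted p = 0.330). Lgr5, a stem cell marker in several epithelia, measured 10.1 and 8.36 CPM in wild types, then 9.67, 11.3 and 17.1 CPM in knockouts, KO 3 being highest (edgeR adjusted p = 0.219). Lgr6 had 7 counts in all.

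Of the 7 secreted antagonists tested, 3 fell (42.9%, beside 10.0% of all genes), 1 of which, Sfrp4, reached the count filter only through the wild types. Sfrp4, a Wnt-binding Frizzled-related protein of connective tissue, lies on chromosome 13 from 19623104 to 19632994 (plus strand, GRCm38). Its counts were 82 and 54 in wild types, then 3, 5 and 4 in knockouts, or 4.28 and 3.76 CPM against 0.113, 0.301 and 0.311 CPM. Sfrp4 fell 17.9-fold (log2 fold change -4.16 ± 0.42, SE; edgeR adjusted p = 0.000229) and, like Ndp, was called in all 14 alternatives that tested it. Frzb, which encodes Sfrp3, measured 11.3 and 10.1 CPM in wild types, then 4.29, 2.95 and 6.46 CPM in knockouts, again without overlap. Frzb fell 2.38-fold (log2 fold change -1.25 ± 0.27, SE; edgeR adjusted p = 0.0104).

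Dkk2, whose product binds Lrp5 and Lrp6, measured 64.3 and 75.1 CPM in wild types, then 46.3, 39.1 and 54.6 CPM in knockouts. It fell 1.495-fold (log2 fold change -0.58 ± 0.14, SE; edgeR adjusted p = 0.0163), with every knockout below both wild types. Leaving out WT 1 lost the calls of Frzb and Dkk2 (edgeR adjusted p = 0.118 and 0.0583), and so did leaving out WT 2 (0.0589 and 0.116). The fibroblast list had a median log2 fold change of -0.56 in the same comparison, and its part in the decreases of the 3 antagonists was not tested.

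The more abundant antagonists gave no call. Dkk3, a divergent Dkk relative, had the second highest level of the 53 genes per exon length, at 62.8 and 65.4 RPKM in wild types and 59.8 to 82.1 RPKM in knockouts (edgeR adjusted p = 0.730). Sfrp2 measured 85.2 and 67.1 CPM in wild types, then 43.5, 52.6 and 90.9 CPM in knockouts, so KO 1 and KO 2 lay below both wild types and KO 3 above them (edgeR adjusted p = 0.424). When KO 3 was left out it was lower (log2 fold change -0.69, edgeR adjusted p = 0.00205). Sfrp1 had a log2 fold change of 0.16 and overlapping genotypes. Wif1, which encodes a Wnt-binding inhibitor, was scarce, with 4 and 6 counts in wild types and 24, 14 and 6 in knockouts (log2 fold change 1.32 ± 0.56, SE; edgeR adjusted p = 0.122). Dkk1 and Sfrp5 had 2 and 47 counts over all libraries and were not tested.

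**Figure D4:**
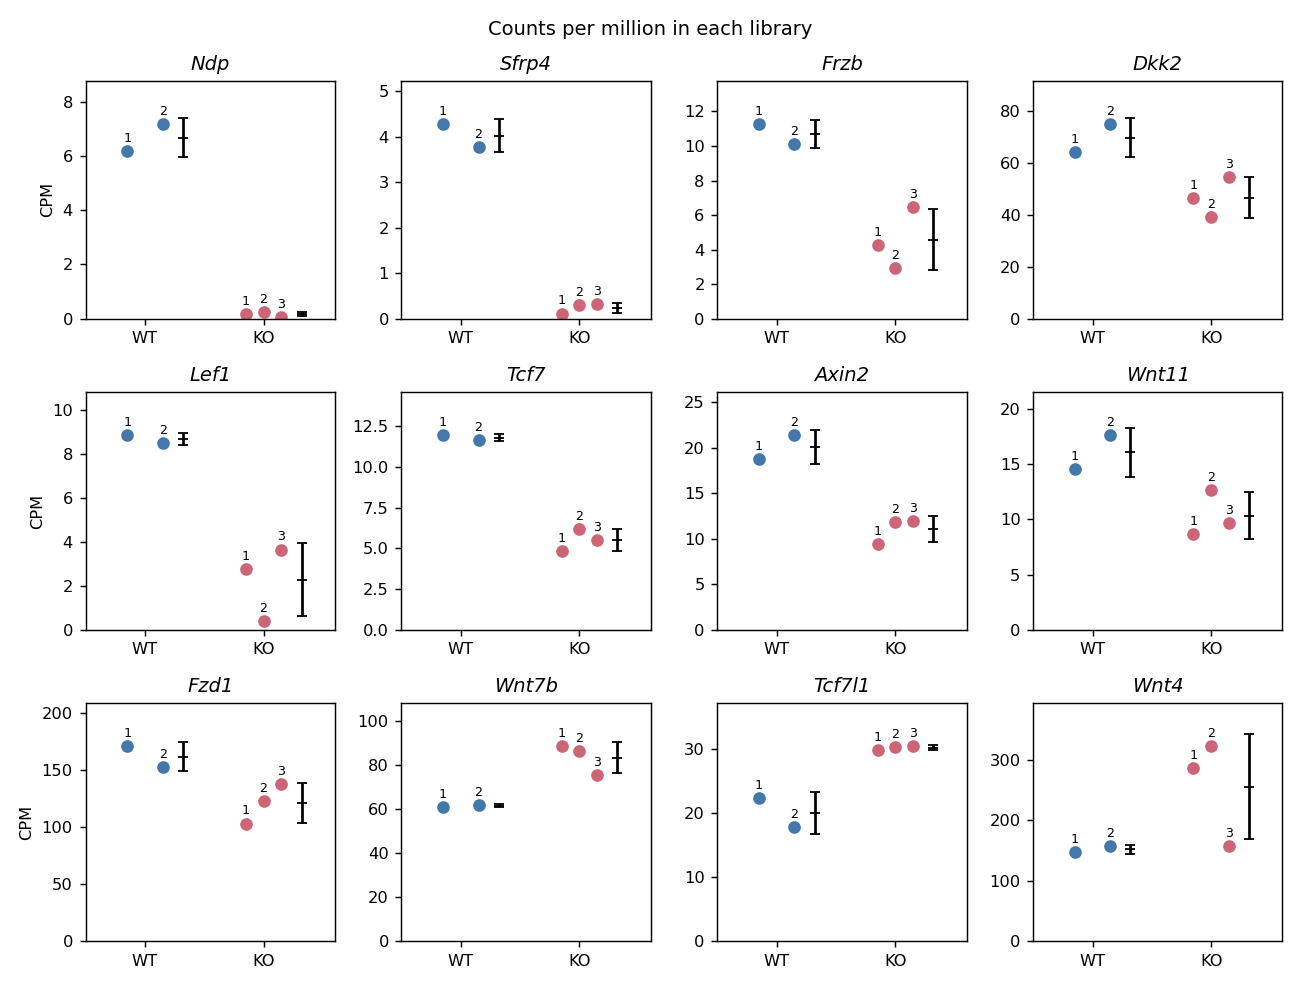
CPM in each library for the 11 genes that changed and for Wnt4, with replicate numbers beside the points and the mean ± SD of each genotype as a black bar. Ndp and Sfrp4 are at most 0.311 CPM in every knockout, and the Wnt4 value of KO 3 is level with the wild types.

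Frizzled receptors and co-receptors differed little. Of 11 tested, 1 fell (9.09%, beside 10.0% of all genes) and 10 gave no call. Their log2 fold changes ran from -0.42 to 0.06, with a median of -0.16. Fzd1, per exon length the most abundant Frizzled gene, measured 171 and 153 CPM in wild types, then 103, 123 and 138 CPM in knockouts. Fzd1 fell 1.34-fold (log2 fold change -0.42 ± 0.12, SE; edgeR adjusted p = 0.0396), with no overlap. Leaving out any one of WT 1, WT 2, KO 1 and KO 2 lost the call (edgeR adjusted p = 0.258, 0.0770, 0.117 and 0.0847). Fzd7 measured 93.2 and 82.9 CPM in wild types, then 71.9, 75.6 and 79.7 CPM in knockouts, every knockout below both wild types (log2 fold change -0.22 ± 0.10, SE; edgeR adjusted p = 0.136). Lrp6 and Fzd10 showed the same order without a call, at -0.24 and -0.23 on the log2 scale. With Fzd1 and Fzd7, this order held in 4 of the 11 (36.4%, beside 25.1% of all genes). Fzd6, which is linked to planar polarity, measured 108 and 98.3 CPM in wild types and 82.5 to 98.3 CPM in knockouts (edgeR adjusted p = 0.319). Fzd2, Fzd3, Fzd5 and Fzd8 had log2 fold changes of -0.12 to 0.06 and overlapping genotypes, and Fzd9 with 23 counts was not tested.

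The rest of the pathway was read from lists of 97 further genes, of which 81 were tested. Of these, 21 fell and 5 rose (25.9% and 6.17%, beside 10.0% and 9.64% of all genes). These counts include genes such as Cthrc1, Sp5 and Mmp7 that reached the count filter through a single genotype, which selects for a difference. Such genes were not counted or set aside here. The shares of the 81 genes and of their lists therefore include this selection. Of 12 other secreted and surface modulators tested, 8 were lower. Apcdd1, a membrane-bound Wnt inhibitor and known Wnt target, measured 33.4 and 34.8 CPM in wild types, then 18.1, 17.6 and 13.0 CPM in knockouts, a 2.08-fold decrease (edgeR adjusted p = 0.00123). The glypican gene Gpc3 fell 2.07-fold and Reck, a cofactor of Wnt7 reception, fell 1.89-fold (edgeR adjusted p = 0.00082 and 0.00299). Cthrc1, a matrix protein gene of fibroblasts, fell by 2.38 on the log2 scale from only 73 counts in all (edgeR adjusted p = 0.00605). Cthrc1 reached the count filter only through the wild types. Leaving out WT 1 lost the call of Reck (edgeR adjusted p = 0.0597), and leaving out WT 2 that of Cthrc1 (0.0791). The median log2 fold change of this list was -0.74, beside -0.56 for fibroblast and -0.43 for endothelial markers, whose part in it was not tested.

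Of 16 beta-catenin target genes tested, 6 fell (37.5%, beside 10.0% of all genes), 3 rose (18.8%, beside 9.64%) and 7 gave no call. The median log2 fold change was -0.09. Bambi, a decoy receptor of TGF-beta signalling, measured 38.0 and 41.5 CPM in wild types, then 15.1, 14.0 and 15.9 CPM in knockouts, and fell 2.66-fold (edgeR adjusted p = 5.67e-05). The cyclin D1 gene Ccnd1 fell 1.54-fold (edgeR adjusted p = 0.00441). Myc rose 2.56-fold and Jun rose 1.61-fold (edgeR adjusted p = 9.66e-05 and 0.00249), and many other pathways also control both. Mmp7, Sp5 and Notum were named after their values were seen. Mmp7, which encodes a matrix-degrading protease of epithelia, was the third to rise (edgeR adjusted p = 0.0140). Its counts were 0 and 1 in wild types, then 24, 52 and 8 in knockouts, so it reached the count filter only through the knockouts. Its call was lost when WT 1 or WT 2 was left out (edgeR adjusted p = 0.156 or 0.0665). Sp5 and Notum respond to Wnt in many tissues. Sp5 measured 0.783 and 0.697 CPM in wild types, then 0.113, 0.180 and 0.311 CPM in knockouts. It had 35 counts in all, reached the count filter only through the wild types and fell (edgeR adjusted p = 0.0343). DESeq2 did not call Sp5 (adjusted p = 0.160), nor did edgeR when WT 1, WT 2, KO 1 or KO 2 was left out (adjusted p = 0.262, 0.129, 0.1099 or 0.0605). Notum, which encodes a secreted Wnt deacylase, measured 27.0 and 29.4 CPM in wild types, then 11.4, 14.6 and 23.9 CPM in knockouts (edgeR adjusted p = 0.0474). Its call was lost when the same 4 libraries were left out in turn (edgeR adjusted p = 0.184, 0.190, 0.114 and 0.114). With all libraries kept, Notum also lost it in the robust edgeR fit (adjusted p = 0.0937) and with library totals alone (0.0505).

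Inside the cell, 3 of 22 destruction complex and Dishevelled genes tested were lower (13.6%, beside 10.0% of all genes) and 19 gave no call (median log2 fold change -0.08). Dact1 and Dact3, which encode Dishevelled-binding proteins, had log2 fold changes of -0.99 and -0.74, and Apc2, a relative of Apc, had -1.51; all 3 fell (edgeR adjusted p = 0.00275, 0.0147 and 0.0181). Leaving out WT 1 lost all 3 calls (edgeR adjusted p = 0.0588, 0.117 and 0.175). Those of Dact3 and Apc2 were lost also when WT 2 (0.0759 and 0.0869) or KO 1 (0.0524 and 0.0605) was left out of the edgeR fit.

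Among 15 non-canonical receptor and planar polarity genes tested, 1 rose, 2 fell and 12 gave no call. The share called was 20.0%, close to the 19.7% of all genes tested. Daam2, a formin gene that acts with Dishevelled, rose 1.89-fold (edgeR adjusted p = 0.00055). Prickle2 fell 1.71-fold and its partner in planar polarity Celsr2 1.41-fold (edgeR adjusted p = 0.00568 and 0.0195). Leaving out WT 1 lost both of these decreases (edgeR adjusted p = 0.0918 and 0.207), and leaving out KO 1 that of Celsr2 (0.0642). Of 15 nuclear cofactors tested, the corepressor gene Tle3 rose 1.31-fold (edgeR adjusted p = 0.0207), a call lost when WT 1, WT 2, KO 1 or KO 2 was left out (0.0697, 0.121, 0.0575 or 0.0871). Sox17, also a factor of endothelial cells, fell 2.22-fold, and the repressor gene Hic1 1.84-fold (edgeR adjusted p = 0.00056 and 0.000863). The other 12 cofactors gave no call, so the share called was again 20.0%, beside 19.7% of all genes tested. Of the remaining Wnt ligands and Rspo4, Wnt3a alone had enough counts to test, 134 in all (edgeR adjusted p = 0.231).

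**Figure D5:**
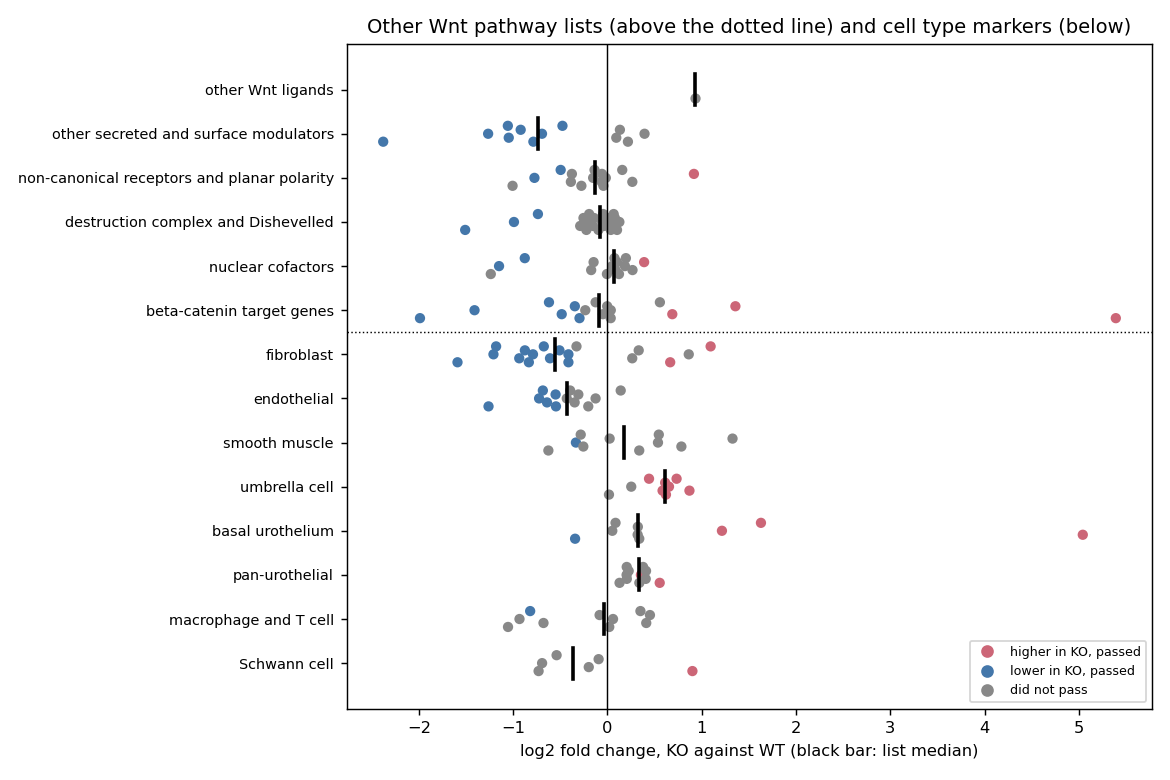
Log2 fold change of each tested gene in the other Wnt pathway lists, above the dotted line, and in the cell type marker lists below it, with a black bar at each list's median. The medians of secreted and surface modulators, fibroblast markers and endothelial markers are -0.74, -0.56 and -0.43, and that of umbrella cell markers is 0.61.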

How the data were processed

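Per the labels' protocols, total RNA was isolated with TRI-Reagent and sequenced from TruSeq libraries. The submitters' processing notes name HISAT2 2.1.0, HTSeq 0.11.1, DESeq2 and the build mm10; no source used here gives the annotation or strand setting. The deposited values are the authors' raw read counts per gene symbol. Only the 49.3% to 60.6% of tallied reads assigned to genes were used, without the 5 summary entries. Axin2, Lef1, Tcf7l1, Wnt11 and Wnt7b overlap opposite-strand exons over 3.80% to 13.7% of their exon length, and reads from either strand cannot be told apart. Larger parts overlap in some further pathway genes that were called. These are 918 of 2408 exon bases in Notum (summed over Myadml2os and Notumos) and 1313 of 3761 in Dact1. In Ccnd1 1100 of 4709 bases overlap, and in Sox17 804 of 4772.

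After filterByExpr (minimum count 10, total 15), counts of 14779 genes were TMM-scaled and fitted by edgeR 4.0.16 (quasi-likelihood, R 4.3.3), with Benjamini-Hochberg adjustment over all of them. Alternatives included limma 3.58.1 and DESeq2 1.42.0, other scalings and filters, a replicate block and each library left out. SE is the log2 fold change over the root of F. RPKM uses merged GENCODE vM21 exons. p-values reflect the spread between these mice. In simulated data for this comparison (14603 genes), 48 to 50 genes were changed at each fold size. Of these, 52.0% of 1.5-fold, 83.3% of 2-fold and 97.9% of 4-fold changes were recovered, and 11 of 174 calls were false. The simulation changed a smaller share of genes than was called in the data, and recovery depends on that share.

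Members, lists and tests were chosen with earlier results of these data known. Values are given for members with an unadjusted p under 0.05, the most abundant of each role, and up to 4 genes of each further list by smallest p; other genes were named after their values were seen.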

Additional observations from a re-analysis of the deposited data

How the results depend on the processing

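Over 15 alternatives, no call among the 45 genes changed direction. Genes without a call could change sign, such as Fzd5 (log2 fold change -0.30 to 0.08) and Wnt5a (-0.09 to 0.07). Values for single genes kept their side of the threshold in 626 cases, lost a call in 20 and gained one in 21; Ndp, Sfrp4, Axin2 and Tcf7 were called wherever they were tested. A filter at 5 CPM left Ndp, Sfrp4 and Lef1 untested. Leaving out a library gave 0 to 4 higher and 4 to 12 lower genes among the 45, where all libraries gave 2 and 9. The 0 came without WT 2 in edgeR, with 2 higher at an unadjusted p under 0.05. The same fits gave 3 to 6 higher and 8 to 24 lower further pathway genes, and 340 to 1743 higher and 375 to 2246 lower among all genes. With WT 1 or WT 2 left out, the lone wild type is assumed to vary like the knockouts, and 5 or 4 of the 11 calls were kept. Scaling moved the median of all genes by at most 0.04 (log2, toward lower). Replicate numbers are not said to pair mice, and deviations of same-numbered libraries correlated at -0.0801 and 0.0738 across genes. Replicate 3 exists only as KO 3, so a replicate block takes KO 3 out of the comparison and resembles leaving it out. With this block, 5 of the 45 genes were higher and 14 lower, with 2211 and 2426 among all genes. All 11 calls were kept and 8 were gained, Wnt4 among them. Genes of few counts, such as Sp5 with 35, are limited by depth.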

Other observations

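Genes within 500 kb of Ndp, Sfrp4, Lef1 and Wnt4 were read after the values of these genes were seen. Changes were called in 1 of 2 tested neighbours of Ndp, 1 of 4 of Sfrp4, 1 of 6 of Lef1 and 2 of 11 of Wnt4, beside 19.7% of all genes tested. Beside Ndp, the monoamine oxidase gene Maoa, 197.7 kb away, measured 33.1 and 36.0 CPM in wild types, then 18.9, 20.0 and 16.1 CPM in knockouts, and fell by 0.91 on the log2 scale (edgeR adjusted p = 0.00116). Maob, between Maoa and Ndp, differed by -0.33 on the log2 scale, short of the threshold (edgeR adjusted p = 0.155). Beside Sfrp4, Epdr1, 3.2 kb away, fell by 0.69 on the log2 scale (edgeR adjusted p = 0.0477). Beside Lef1, Papss1 fell by 0.33 on this scale (edgeR adjusted p = 0.0450). Beside Wnt4, Hspg2 fell by 1.05 and Alpl rose by 0.50 on it (edgeR adjusted p = 0.00868 and 0.0168).

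KO 3 was the knockout nearest the wild-type mean in 24 of the 45 tested Wnt genes (53.3%) and in 46.7% of all genes tested. Among genes that changed it was nearest in 7 of 11 Wnt genes (63.6%) and in 56.4% of all 2907.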
